A study of Mus musculus with 8 samples.

Results

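The genes described here are 9 liver enzymes that act early in the breakdown of amino acids. They are the transaminases Got1, Gpt, Gpt2, Tat and Agxt, and the degradative enzymes Sds, Tdo2, Hpd and Hal. They were chosen by name from the gene symbols of the array's annotation, and each gene was read from its probe with the highest mean over all arrays. A named probe was found for 8 of the 9, each with a single probe, out of 16593 named genes on the array. Sds, a serine dehydratase, had no named probe and was not analysed here. There were 4 liver samples of ΔF508 female mice (the CF group, for cystic fibrosis) and 4 of their female wild-type littermates (the WT group), all of strain C57BL/6 and 3 weeks old. An enriched diet was given from weaning at 21 days until death at 23 days, and a dilute Colyte solution (polyethylene glycol with electrolytes) replaced drinking water in both genotypes. ΔF508 is an allele of Cftr, which encodes an epithelial chloride channel, and the labels describe the CF mice by this allele with no restriction to a tissue or cell type. Total RNA from whole liver was read on single-colour bead arrays, 1 array per sample, and levels below are the deposited log2 values.

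Amino acids that are not used for protein lose their nitrogen before their carbon skeletons are burned or turned into glucose, and the liver is the main site of this for most of them. Transaminases move the amino group to a keto acid, usually producing glutamate, and work in both directions. The committed steps for single amino acids, such as the opening of the tryptophan ring by Tdo2 or the deamination of histidine by Hal, run one way only. In rodent liver, Tat, Tdo2 and Sds are textbook targets of glucocorticoids and glucagon and are known for their response to fasting and dietary protein.

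Promoter sequences are shown for 5 of these genes. Got1 and Gpt2 had the largest higher levels in CF livers, Hal had the largest lower one, and Tat and Tdo2 followed the same pattern over the arrays. RefSeq sequences of assembly GRCm38.p6, from 250 bases before to 50 bases after the annotated start, were matched by symbol for 7 of the 8 measured genes, all but Gpt. The windows lie at chr19:43524556-43524855 (minus strand) for Got1, chr8:85492326-85492625 (plus strand) for Gpt2, chr10:93488518-93488817 (plus strand) for Hal, chr8:109990186-109990485 (plus strand) for Tat and chr3:81975679-81975978 (minus strand) for Tdo2. Each is printed 5′ to 3′ on the strand of the gene, and capitals mark matches on either strand to the motifs described after them.
Got1 promoter: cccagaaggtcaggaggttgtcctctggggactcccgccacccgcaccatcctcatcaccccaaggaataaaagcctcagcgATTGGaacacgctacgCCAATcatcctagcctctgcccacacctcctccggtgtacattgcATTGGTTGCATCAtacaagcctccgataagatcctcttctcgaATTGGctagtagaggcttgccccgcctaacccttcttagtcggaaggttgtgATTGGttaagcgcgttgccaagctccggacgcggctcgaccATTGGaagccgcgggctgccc
Gpt2 promoter: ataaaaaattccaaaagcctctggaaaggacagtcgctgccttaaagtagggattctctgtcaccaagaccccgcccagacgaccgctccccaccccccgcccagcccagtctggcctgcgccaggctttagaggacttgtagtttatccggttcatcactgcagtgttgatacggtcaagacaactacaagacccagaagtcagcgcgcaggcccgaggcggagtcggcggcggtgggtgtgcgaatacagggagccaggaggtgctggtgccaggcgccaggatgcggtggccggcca
Hal promoter: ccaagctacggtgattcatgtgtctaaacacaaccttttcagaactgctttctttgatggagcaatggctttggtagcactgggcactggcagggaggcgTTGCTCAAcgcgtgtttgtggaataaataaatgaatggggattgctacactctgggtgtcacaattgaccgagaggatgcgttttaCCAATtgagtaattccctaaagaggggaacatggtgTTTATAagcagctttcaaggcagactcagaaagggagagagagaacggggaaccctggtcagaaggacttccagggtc
Tat promoter: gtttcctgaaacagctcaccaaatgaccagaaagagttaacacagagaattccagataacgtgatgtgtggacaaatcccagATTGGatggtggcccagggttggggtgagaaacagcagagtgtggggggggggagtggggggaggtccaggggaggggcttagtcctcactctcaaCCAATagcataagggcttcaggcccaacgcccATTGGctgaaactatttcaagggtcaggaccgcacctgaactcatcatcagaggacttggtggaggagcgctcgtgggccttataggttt
Tdo2 promoter: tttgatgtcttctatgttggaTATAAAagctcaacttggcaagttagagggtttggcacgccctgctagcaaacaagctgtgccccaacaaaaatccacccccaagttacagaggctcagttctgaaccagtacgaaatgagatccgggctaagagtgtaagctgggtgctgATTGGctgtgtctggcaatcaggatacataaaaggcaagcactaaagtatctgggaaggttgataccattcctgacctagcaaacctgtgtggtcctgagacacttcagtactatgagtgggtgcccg

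The 8 motifs searched were TATAAA (the TATA box), CCAAT (the CCAAT box), TGACGTCA and its shorter form TGACG (cAMP response), AGAACA (a core of the glucocorticoid response element), TGATGNAA (the core of the C/EBP-ATF response element), TTGCNNAA (a C/EBP core) and CAAAGTCCA (an HNF4 core). Among all 32851 promoters of the same length, CCAAT was found in 37.4%, TGACG in 20.8%, AGAACA in 19.0%, TATAAA in 13.6%, TTGCNNAA in 10.8%, TGATGNAA in 3.97%, TGACGTCA in 1.79% and CAAAGTCCA in 0.475%. TGACG lies within TGACGTCA, so these matches overlap. The Got1 window held 6 matches to CCAAT, a number reached by 26 promoters (0.0791%). Got1 had the most CCAAT matches of the 7 windows and only its count was compared in this way, so the share is a description. The Got1 window also held a match to TGATGNAA on the minus strand at position -102, counted from the annotated start, directly after the CCAAT match at -107. A CCAAT match directly followed by a TGATGNAA match, each on either strand, was found in 4 promoters (0.0122%). The reverse order was not counted, and this arrangement was looked for only after it had been seen in Got1. Hal held TTGCNNAA at -150, CCAAT at -64 and TATAAA on the minus strand at -28. Tat held 3 matches to CCAAT, and Tdo2 held TATAAA at -229 and CCAAT at -78. None of these letters were found in the Gpt2 window. Of the 2 windows not printed, Agxt held AGAACA on the minus strand at -129 and Hpd held none of the 8 motifs. These matches describe letters in a window and do not show a site in use.

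Genotype was compared with limma over all tested probes, and a probe was tested where it lay above the background level of 6.47 on at least 4 of the 8 arrays. Of the 12923 tested probes 2474 (19.1%) differed at an adjusted p under 0.05, 1337 higher and 1137 lower in CF livers, and 4216 had an unadjusted p under 0.05. Hepatocyte markers, among them the plasma protein genes Ttr, Apoa1 and Apoa2, were not shown to differ. Their mean level was 11.65 to 11.77 in CF livers and 11.71 to 11.79 in WT livers. Of 5 tested 0 passed, and Fgb was under background in both genotypes. Ttr, Apoa1 and Apoa2 had genotype means of 14.35 to 14.43, against a highest value of 14.66 on the arrays. Alb averaged 7.92 in CF livers and 7.97 in WT livers. Whether these probes could show a difference was not tested. Cftr itself lay under background on all 8 arrays. Transcripts of other organs were present, at levels that differed between arrays. The mean of 9 measured exocrine pancreas markers was 11.88 in CF 1 and 12.39 in WT 3, against 7.30 to 9.93 in the other CF livers and 7.09 to 9.07 in the other WT livers. Kidney markers were near background on 7 arrays, with a mean of 6.15 to 6.32 in CF livers and 6.16 to 6.25 in the other WT livers, but their mean was 10.50 in WT 4. CF 1 and WT 3 also stood together on the second principal component, which held 21.2% of the variance, while the first (45.7%) separated the genotypes. Results are therefore also given without WT 3 and CF 1, and without WT 3, WT 4 and CF 1. All 9 pancreas markers were above background on every array but WT 4, where 4 were. The arrays that remain are therefore not free of these transcripts. Skeletal muscle markers averaged 10.28 to 11.56 in CF livers and 10.76 to 12.14 in WT livers, with 0 of 5 passing. Few markers of other liver cells passed. In CF livers 1 of 5 tested endothelial markers (Lyve1), 1 of 4 macrophage markers (Marco), 1 of 3 erythroid markers (Klf1) and 1 of 6 stellate markers (Dcn) were higher, and 1 stellate marker (Lrat) was lower. The others did not pass, and among them Clec4g (-0.16), Clec4f (-0.11), Adgre1 (-0.10) and Alas2 (-0.25) had differences of the opposite sign to the called gene of their list. Stab2 (0.32), Pecam1 (0.22) and Cdh5 (0.11) had the same sign as Lyve1 (1.35). The mean of the endothelial markers was 8.78 to 8.85 in CF livers and 8.44 to 8.56 in WT livers, without overlap. The intestinal marker Lgals4 was higher as well, while Fabp2, Sis and Vil1 were not above the filter, and 0 of 3 tested cholangiocyte markers passed. The part of these cells in the results below was not tested. In whole liver, fewer cells of a type and less RNA per cell cannot be told apart.

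**Figure D1:**
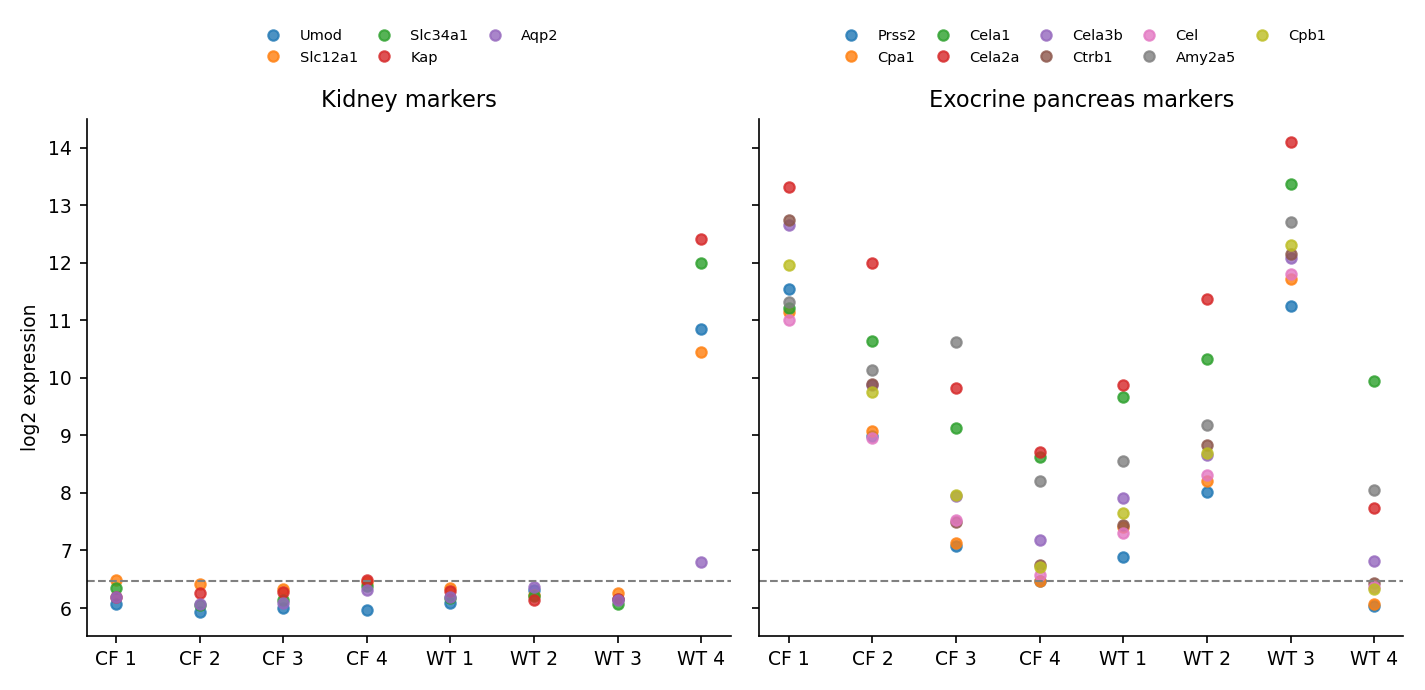
Levels of kidney markers (left) and exocrine pancreas markers (right) on each of the 8 arrays, in log2 units. Each point is 1 gene on 1 array, CF arrays stand to the left of WT arrays, and the dashed line is the background level of 6.47. Kap, Slc34a1, Umod and Slc12a1 lie far above it in WT 4 alone, and pancreas markers are highest in CF 1 and WT 3.

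Of the 8 measured enzymes 5 differed between genotypes, Got1, Gpt and Gpt2 higher and Hal and Agxt lower in CF livers, while Tat, Tdo2 and Hpd did not pass. That is 62.5% of the measured genes, against 19.8% of the 9146 tested named genes, of which 11.0% were higher and 8.79% lower. The CF and WT arrays did not overlap for the same 5 genes, as for 24.4% of all tested named genes. The median difference of the 8 genes was 0.31 on the log2 scale, against 0.02 over all tested named genes, and their median absolute difference was 0.424, against 0.140. The enzymes were chosen with earlier results of these data known, so these shares and medians are descriptions. All 8 passed the background filter, but Tat did so on the minimum of 4 arrays, 3 of them CF. The other 7 were above background on every array. Nothing in the labels says that the 4 samples of a genotype came from separate animals, so the p-values measure the spread between these samples.

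**Figure D2:**
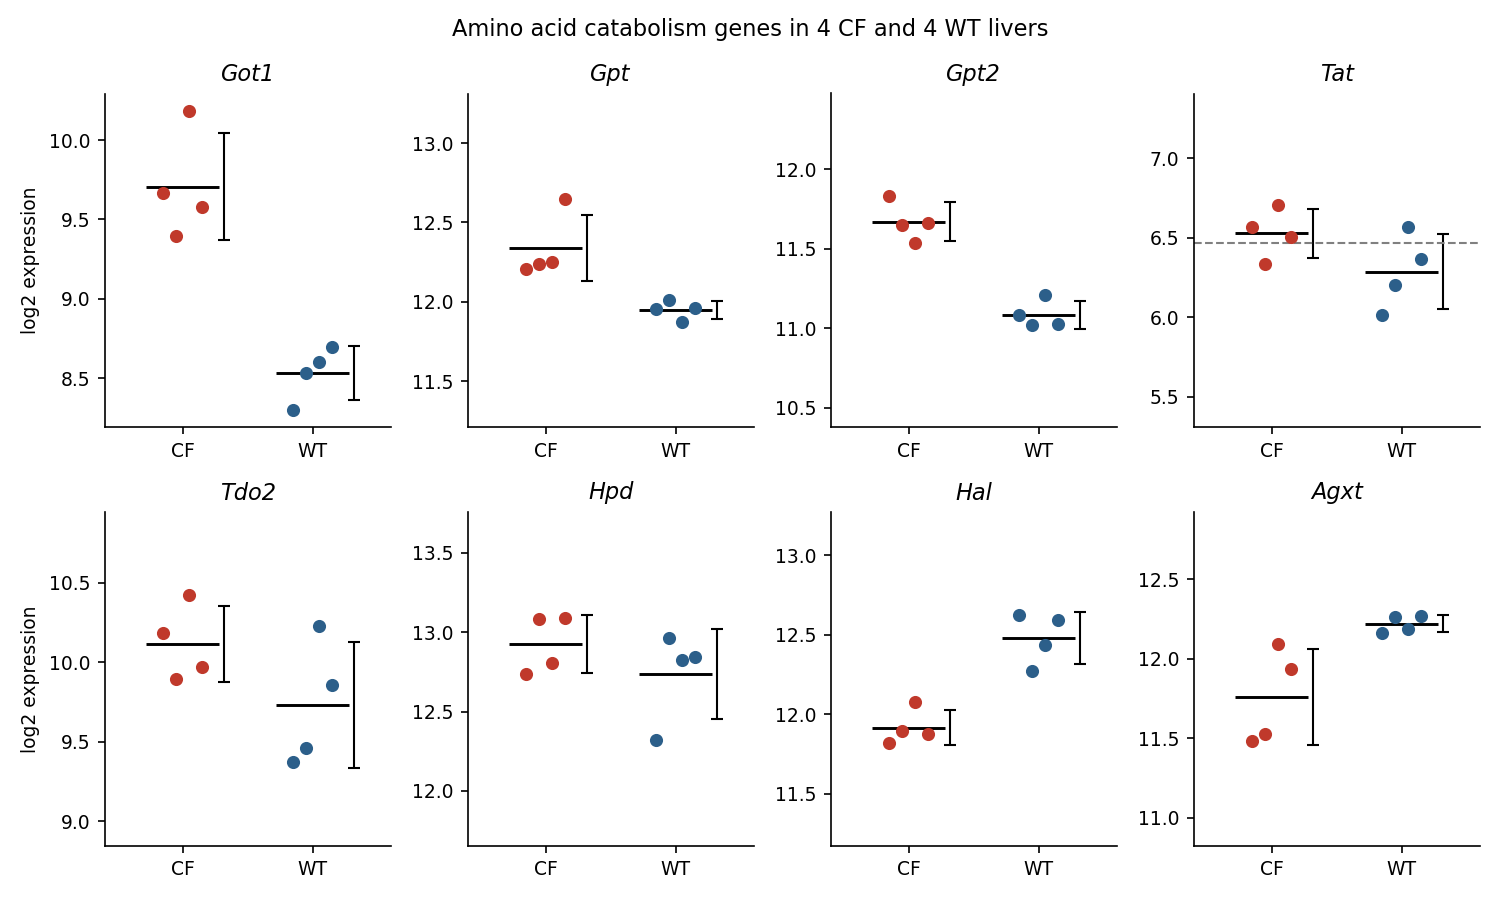
Log2 expression of the 8 measured enzymes on each array, CF to the left of WT in each panel, with every point 1 array, the horizontal bar the mean of 4 and the vertical bar 1 SD to each side. The dashed line in the Tat panel is the background level of 6.47. All CF points lie above all WT points for Got1, Gpt and Gpt2 and below them for Hal and Agxt, while those of Tat, Tdo2 and Hpd overlap.

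Got1, the cytosolic aspartate transaminase, showed the largest difference of the 8. Its level was 9.67, 9.39, 10.18 and 9.58 in CF livers, against 8.30, 8.53, 8.61 and 8.70 in WT livers. Every CF liver was above every WT liver, and CF 3 was the highest of them. The means were 9.71 ± 0.34 in CF livers and 8.53 ± 0.17 in WT livers (SD, n = 4 each), a difference of 1.17 ± 0.16 (SE; 95% interval 0.81 to 1.53), which is 2.25-fold (limma, adjusted p = 0.00144). A called difference of at least 1 on the log2 scale was found for 1.66% of tested named genes. Without WT 3 and CF 1 the difference was 1.21 (adjusted p = 0.0157), and over all 18 alternatives it stayed between 1.01 and 1.30.

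The enzyme pair that exchanges nitrogen between alanine and glutamate was also higher in CF livers. Gpt2, the mitochondrial alanine transaminase, measured 11.83, 11.65, 11.53 and 11.66 in CF livers, against 11.08, 11.02, 11.21 and 11.03 in WT livers. The genotypes were well apart, with little spread within either. The difference was 0.59 ± 0.08 (SE; 95% interval 0.41 to 0.77), or 1.50-fold (limma, adjusted p = 0.00151). It remained past the threshold without WT 3 and CF 1, at 0.57 (adjusted p = 0.00879). Gpt, the cytosolic alanine transaminase, measured 12.21, 12.24, 12.25 and 12.65 in CF livers, against 11.96, 12.01, 11.88 and 11.96 in WT livers. The CF livers again lay above the WT livers, and CF 4 stood apart from the other CF arrays. The difference for Gpt was 0.39 ± 0.10 (SE; 95% interval 0.16 to 0.61), or 1.31-fold (limma, adjusted p = 0.0263). Its call was lost on leaving out WT 1 (adjusted p = 0.0529), WT 3 (0.0741) or WT 4 (0.0551), or both WT 3 and CF 1 (0.0885), with a difference of 0.28 to 0.43 when any 1 array was left out.

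Hal and Agxt went the other way. Hal, histidine ammonia-lyase, makes urocanate from histidine in the first step of its breakdown. Its level was 11.82, 11.89, 12.08 and 11.87 in CF livers, against 12.63, 12.27, 12.43 and 12.59 in WT livers. All CF livers lay below all WT livers. The means were 11.92 ± 0.11 in CF livers and 12.48 ± 0.16 in WT livers (SD, n = 4 each), a difference of -0.56 ± 0.09 (SE; 95% interval -0.78 to -0.35), which is 1.48-fold lower (limma, adjusted p = 0.00385). Without WT 3 and CF 1 it was -0.55 (adjusted p = 0.033), and with WT 4 left out as well it was no longer past the threshold (adjusted p = 0.0898).

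Agxt, the alanine-glyoxylate transaminase that clears glyoxylate in hepatocytes, measured 11.48, 11.53, 12.09 and 11.93 in CF livers, against 12.16, 12.26, 12.19 and 12.27 in WT livers. The WT livers were close together, while the CF livers were spread, with CF 1 and CF 2 the lowest and CF 3 just under the lowest WT liver. The means were 11.76 ± 0.30 in CF livers and 12.22 ± 0.05 in WT livers (SD, n = 4 each), a difference of -0.46 ± 0.13 (SE; 95% interval -0.76 to -0.16), or 1.38-fold lower (limma, adjusted p = 0.0381). This call was kept in 2 of the 8 fits that left out 1 array. It was lost without CF 1 (0.0863), CF 2 (0.0902), WT 1 (0.0647), WT 2 (0.0824), WT 3 (0.079) or WT 4 (0.0839), each value an adjusted p. Without both WT 3 and CF 1 the difference was -0.38 (adjusted p = 0.152).

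**Figure D3:**
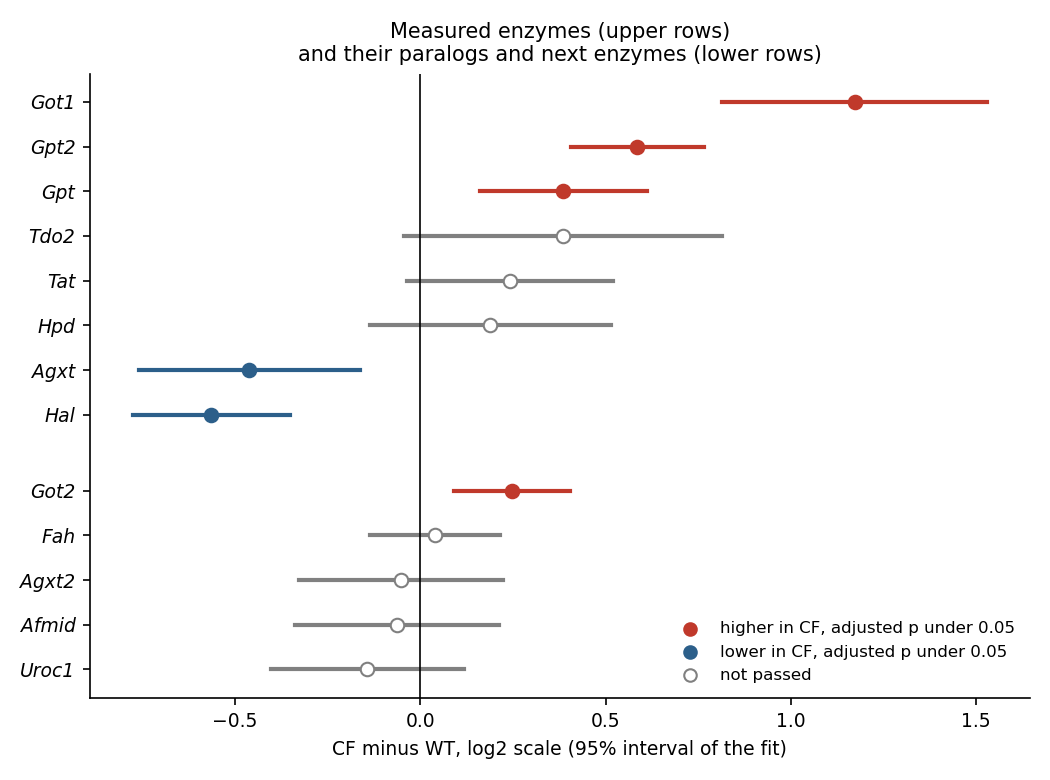
CF minus WT differences on the log2 scale with the 95% interval of the fit, for the 8 measured enzymes in the upper rows. The lower rows hold Got2, Agxt2 and next enzymes of the same routes. Filled points passed the test. Got1 lies highest at 1.17 and Hal lowest at -0.56, the intervals of Tat, Tdo2 and Hpd cross 0, and Got2 alone of the lower rows passed.

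Tdo2, Tat and Hpd did not pass the test. Tdo2, the heme enzyme that opens the tryptophan ring, measured 10.18, 9.89, 10.42 and 9.97 in CF livers, against 9.37, 9.46, 10.23 and 9.86 in WT livers. The genotypes overlapped, since WT 3 was above 3 of the CF livers. The difference was 0.39 ± 0.19 (SE; 95% interval -0.04 to 0.81; limma, adjusted p = 0.195). The same size of difference passed for Gpt, whose WT livers varied with an SD of 0.06 against 0.40 for Tdo2. Tat, the tyrosine transaminase, measured 6.57, 6.34, 6.70 and 6.50 in CF livers, against 6.01, 6.20, 6.57 and 6.36 in WT livers. These values lay around background, 1 CF and 3 WT arrays being under it, so the size of the fitted difference, 0.24 ± 0.12 (SE; limma, adjusted p = 0.212), depends on how background was treated before deposit. Hpd, which converts the keto acid made from tyrosine to homogentisate, measured 12.74, 13.08, 12.80 and 13.09 in CF livers, against 12.32, 12.96, 12.83 and 12.84 in WT livers. WT 1 was the lowest of all, and the remaining arrays overlapped. Its difference was 0.19 ± 0.14 (SE; 95% interval -0.13 to 0.51; limma, adjusted p = 0.405), and 0.05 without WT 1 (adjusted p = 0.793). The intervals of Tdo2 and Hpd hold 0 as well as rises as large as that of Gpt.

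Among 9145 other tested genes, the gene most like Tat over the 8 arrays was Tdo2, and the gene most like Tdo2 was Tat. Their Pearson correlation was 0.975 over the 8 arrays, and 0.964 after the mean of each genotype had been taken off. CF 3 was the highest array for both, WT 3 and CF 1 followed, and WT 1 and WT 2 were the lowest for both. The pancreas marker mean was 8.30 in CF 3 and 11.88 in CF 1, against 12.39 in WT 3, 8.08 in WT 1 and 9.07 in WT 2. The next genes after Tdo2 in likeness to Tat were Mbtd1 (0.952) and Bhmt (0.941), a methyltransferase that remakes methionine from homocysteine. After Tat, those most like Tdo2 were Cul3 (0.932) and Gdpd2 (0.926). These points share the arrays and their normalization, Tat is close to background, and a correlation picked as the highest of many is high by selection.

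**Figure D4:**
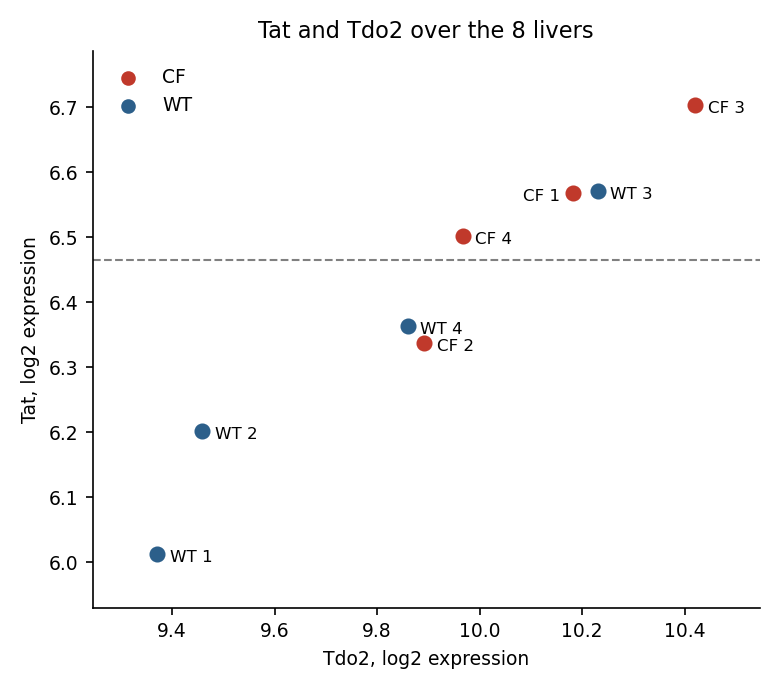
Log2 level of Tat (vertical axis) against that of Tdo2 (horizontal axis), 1 point per array, labelled by genotype and replicate. The dashed line is the background level of 6.47. CF 3 is at the top, with CF 1 and WT 3 next to each other below it, and WT 1 and WT 2 are at the bottom.

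For the other 6 genes the nearest patterns over the 8 arrays were as follows. Got1 was most like C1qtnf4 (0.984), Chst15 (0.981) and Ginm1 (0.978), each higher in CF livers. C1qtnf4 was close to background, with a mean of 6.89 in CF livers and 6.41, under the background level, in WT livers. The genes nearest to Gpt were Psma2 (0.987), Parl (0.976) and Chchd4 (0.974), of which Psma2, a proteasome subunit gene, did not itself pass (adjusted p = 0.0671). Nearest to Gpt2 were Slc35e3 (0.981), Ube2e2 (0.980) and Ciart (0.978), a circadian repressor gene with a difference of 1.75 (adjusted p = 4.8e-05). Hal was most like Sox7 (0.993), Cetn2 (0.981) and Maob (0.979), a monoamine oxidase, all lower in CF livers. Agxt was most like Adipoq (0.968), Rab5c (0.958) and Dmac2 (0.953), and Hpd like Slc26a1 (0.975), Flad1 (0.950) and Serpinb6b (0.942). A gene with a genotype difference correlates with any other such gene, so these values are descriptions. Among the enzymes themselves, taking off the genotype means left Got1 correlated with Tat at 0.756, with Tdo2 at 0.711 and with Agxt at 0.686, and Gpt2 with Agxt at -0.70, over the same 8 arrays. These are given as the largest after that of Tat with Tdo2. Got1 had 0.33 with Hal, -0.21 with Gpt, -0.37 with Gpt2 and -4.2e-06 with Hpd.

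Got1 and Got2 catalyse the same reaction, Got1 in the cytosol and Got2 in mitochondria, and both serve the malate-aspartate shuttle. Got2 measured 13.81, 13.76, 13.83 and 13.98 in CF livers, against 13.55, 13.70, 13.56 and 13.58 in WT livers. It was higher in every CF liver than in any WT liver, by 0.25 ± 0.07 (SE; limma, adjusted p = 0.0359), a call lost on leaving out any 1 of 6 arrays (CF 1, CF 3, CF 4, WT 1, WT 3 or WT 4; adjusted p up to 0.0942). The Got1 probe minus the Got2 probe, on the log2 scale, was -4.14 ± 0.35 in CF livers and -5.06 ± 0.17 in WT livers (SD, n = 4 each). Got1 thus differed between genotypes by 0.92 more than Got2, and the arrays did not overlap. The Got2 levels lay near the highest value on the arrays, 14.66. Whether this narrowed the difference seen for Got2 was not tested. The exact two-sided permutation p of this pair was 0.0286, the smallest that 70 assignments of the arrays allow. After adjustment over the 2 paralog pairs tested it was 0.0571, which does not pass. No separation of the arrays could have passed here unless the other pair also had a low p, so the adjusted value decides nothing. For the alanine transaminases, Gpt2 minus Gpt was -0.67 ± 0.26 in CF livers and -0.87 ± 0.14 in WT livers (SD, n = 4 each). That difference of 0.20 was within the spread between arrays (exact two-sided permutation p = 0.257). The pair of Sds with Sdsl could not be run, since neither had a named probe.

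The wider pathways around these enzymes were described by 11 lists of 101 genes, of which 78 were tested. In CF livers 16 were higher and 17 lower, 42.3% of those tested, against 19.8% of all tested named genes, and their median difference was -0.07, against 0.02. The lists too were chosen with earlier results of these data known, so this share is a description. Without WT 3 and CF 1, 7 were higher and 6 lower. With WT 4 left out as well, 3 were higher (Hoga1, Dhtkd1 and Cebpb) and 5 lower (Qdpr, Kyat1, Ppm1k, Csad and Slc6a9). Of the 31 called genes named here by the rule on lists, 15 kept their call whichever 1 array was left out, and 13 of these also without WT 3 and CF 1. The 15 are Gldc, Hoga1, Mdh2, Prodh2, Bcat2, Pccb, Dhtkd1 and Cebpb, which were higher, and Qdpr, Kyat1, Srr, Ppm1k, Csad, Sqor and Slc6a9, which were lower. Dhtkd1 and Srr are those that did not pass without WT 3 and CF 1.

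**Figure D5:**
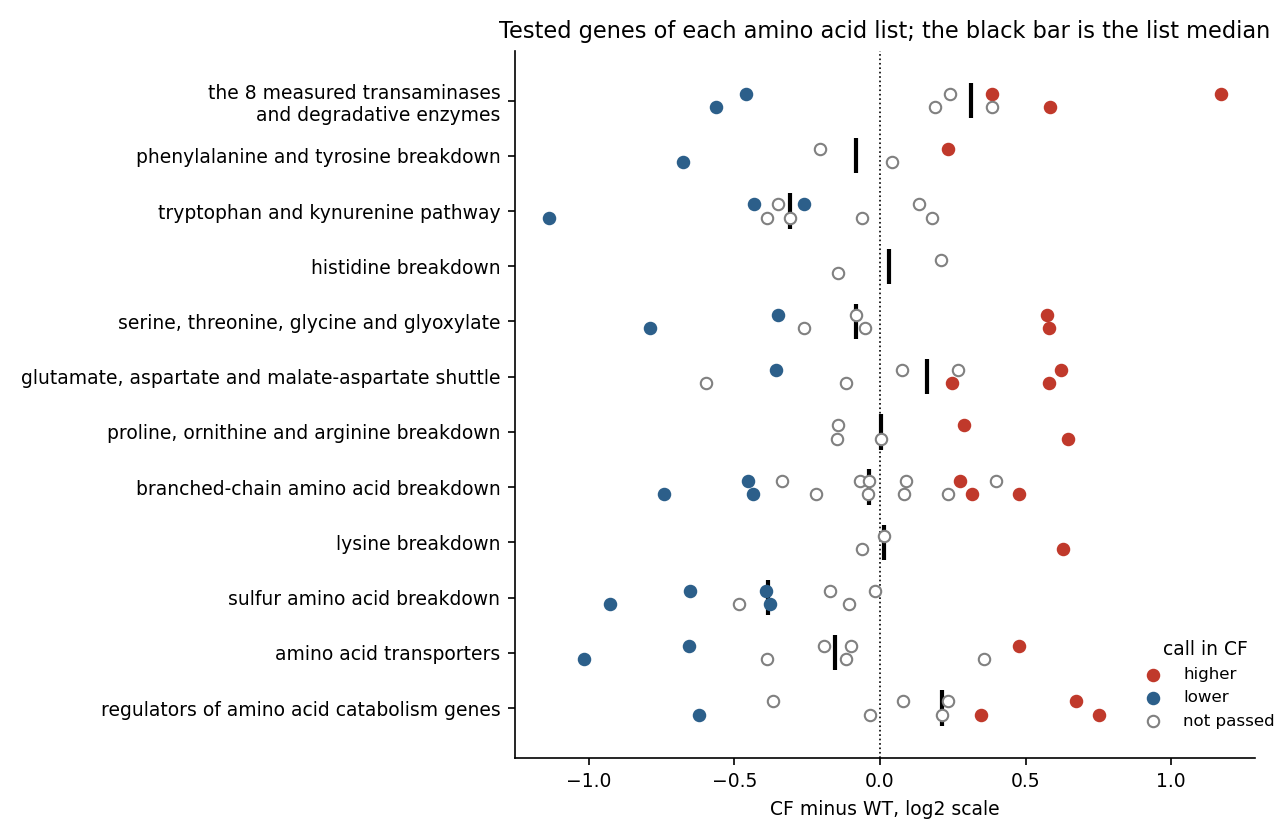
CF minus WT difference on the log2 scale of each tested gene, by list, with red for higher, blue for lower and open points for genes that did not pass. Black bars are list medians. The sulfur amino acid list lies wholly under 0 and the other lists hold points on both sides.

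Around Got1, the glutamate, aspartate and shuttle list had 3 genes higher, 1 lower and 4 not passed of 8 tested. Mdh2, the mitochondrial malate dehydrogenase, averaged 10.93 ± 0.14 in CF livers and 10.31 ± 0.15 in WT livers (SD, n = 4 each), a difference of 0.62 (limma, adjusted p = 0.00287). Slc25a11, the mitochondrial carrier that exchanges malate for oxoglutarate, was higher by 0.58 (adjusted p = 0.018). That call was lost without WT 3 (0.0506), without WT 3 and CF 1 (0.0985) and with replicate number as a block (0.064). Its other probes gave 0.51 (adjusted p = 0.0157) and 0.22 (adjusted p = 0.302). Aspg, an asparaginase, was lower by 1.28-fold (adjusted p = 0.0384), a call kept in 1 of the 8 fits that left out an array. Mdh1, the cytosolic malate dehydrogenase, had a difference of -0.12 on its brightest probe (adjusted p = 0.571), while a dimmer probe gave -0.47 (adjusted p = 0.00536), so its probes disagree. Glud1, which releases ammonia from glutamate, had -0.60 ± 0.25 (SE; adjusted p = 0.124) and passed without CF 3, at -0.78 (adjusted p = 0.0489).

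Next to Hpd and Tat on the route from phenylalanine through tyrosine, 1 gene was higher, 1 lower and 2 did not pass of 4 tested. Qdpr, which regenerates the cofactor tetrahydrobiopterin, measured 10.51, 10.54, 10.41 and 10.48 in CF livers, against 11.46, 11.08, 11.01 and 11.10 in WT livers. The CF livers were tightly grouped under all WT livers, 1.60-fold lower (limma, adjusted p = 0.00208). Gstz1, the maleylacetoacetate isomerase that follows Hpd, was higher by 0.23 (adjusted p = 0.0319), a call lost without any 1 of 6 arrays. Fah, the last enzyme of the route, had a difference of 0.04 ± 0.08 (SE; adjusted p = 0.775), and Pcbd1, which also recycles the cofactor, had -0.21 ± 0.10 (SE; adjusted p = 0.177), passing without CF 4 at -0.29 (adjusted p = 0.0381). Hgd had no named probe.

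In the tryptophan and kynurenine list, to which Tdo2 leads, 3 genes were lower, none was higher and 6 did not pass of 9 tested. With probes required above background on all 8 arrays, 2 were lower, since Ido2 was then not tested. Kyat1, a transaminase of kynurenine and glutamine, measured 10.43, 10.48, 10.43 and 10.71 in CF livers, against 11.72, 11.61, 11.71 and 11.55 in WT livers. The genotypes were far apart, with a 2.20-fold lower level in CF livers (limma, adjusted p = 6.8e-05), and the second Kyat1 probe gave -1.37 (adjusted p = 2.76e-05). Haao, the 3-hydroxyanthranilate dioxygenase, was 1.35-fold lower (adjusted p = 0.024), a call lost without any 1 of 4 arrays. Ido2, which catalyses the same ring opening as Tdo2, was under background on all 4 CF arrays (mean 6.32) and above it on all 4 WT arrays (mean 6.58), so it entered the test through WT livers alone. Its call (adjusted p = 0.0329) was lost without any 1 of 6 arrays and with values floored at background (adjusted p = 0.168), and no fold is given. Afmid, whose product follows directly from that of Tdo2, had -0.06 ± 0.12 (SE; adjusted p = 0.771) on the brightest of its 7 probes. The other 6 lay between -0.43 and -0.30, none past the threshold (lowest adjusted p = 0.101). Kynu had -0.35 ± 0.11 (SE; adjusted p = 0.061), passing without CF 3 at -0.44 (adjusted p = 0.0263), and Qprt had 0.13 ± 0.10 (adjusted p = 0.406). After Hal in histidine breakdown, neither tested gene passed: Uroc1, which acts on urocanate, had -0.14 ± 0.12 (SE; adjusted p = 0.433) and Ftcd had 0.21 ± 0.12 (adjusted p = 0.277). Ftcd passed without CF 2, at 0.34 (adjusted p = 0.0254), and its second probe had the opposite sign, -0.12 (adjusted p = 0.668).

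Around Agxt and Sds, the serine, threonine, glycine and glyoxylate list had 2 genes higher, 2 lower and 3 not passed of 7 tested. Hoga1, which releases glyoxylate in the breakdown of hydroxyproline, was higher by 0.58 (limma, adjusted p = 0.00502), with 0.58 on its second probe as well. Gldc, the glycine decarboxylase of the glycine cleavage system, was 1.49-fold higher (adjusted p = 0.00939). Srr, serine racemase, measured 8.67, 8.80, 8.62 and 8.28 in CF livers, against 9.79, 9.04, 9.59 and 9.11 in WT livers. It was 1.73-fold lower with no overlap (adjusted p = 0.0149). Grhpr, which reduces glyoxylate, was 1.27-fold lower (adjusted p = 0.0373), lost without any 1 of 6 arrays. Hao1, which makes glyoxylate from glycolate, had -0.26 ± 0.10 (SE; adjusted p = 0.114), and Agxt2, another alanine-glyoxylate transaminase, had -0.05 ± 0.12 (adjusted p = 0.815).

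Proline, ornithine and arginine breakdown had 2 genes higher, none lower and 3 not passed of 5 tested. Prodh2, the hydroxyproline dehydrogenase, was 1.56-fold higher (limma, adjusted p = 0.00635), and its other probes gave 0.56 each. Arg1, the liver arginase of the urea cycle, was 1.22-fold higher (adjusted p = 0.0206), a call lost without CF 3 (0.0512), without WT 3 and CF 1 (0.0666) and after cyclic loess (0.0639). Oat had a difference of 0.00 ± 0.11 (SE; adjusted p = 0.99) and Aldh4a1 had -0.15 ± 0.12 (adjusted p = 0.442). In lysine breakdown 1 of 3 tested genes passed. That gene, Dhtkd1, a subunit of the 2-oxoadipate dehydrogenase complex, was 1.55-fold higher (adjusted p = 0.013). Its second probe did not pass, at 0.16 (adjusted p = 0.167), and the mean of both probes was higher by 0.40 (adjusted p = 0.0171). Gcdh had 0.01 ± 0.07 (SE; adjusted p = 0.909) and Aass had -0.06 ± 0.16 (adjusted p = 0.831).

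The branched-chain list, whose first step is a transamination, had 3 genes higher, 3 lower and 9 not passed of 15 tested. Bcat2, the mitochondrial branched-chain transaminase, was 1.39-fold higher (limma, adjusted p = 0.00389), and Pccb, a propionyl-CoA carboxylase subunit, was 1.25-fold higher (adjusted p = 0.00888). A second Pccb probe did not pass, at 0.12 (adjusted p = 0.367). Ppm1k, the phosphatase that activates the branched-chain keto acid dehydrogenase, was 1.67-fold lower (adjusted p = 0.00411). Hibadh, of valine breakdown, was 1.35-fold lower (adjusted p = 0.0207), a call lost without CF 3 or without WT 4. Ivd had 0.23 ± 0.08 (SE; adjusted p = 0.0676), passing without CF 1 at 0.28 (adjusted p = 0.0472), and Aldh6a1 had -0.07 ± 0.11 (adjusted p = 0.707).

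Sulfur amino acid breakdown had 4 genes lower, none higher and 4 not passed of 8 tested, with a list median of -0.38. Csad, which makes hypotaurine on the way to taurine, measured 9.66, 9.32, 8.76 and 8.77 in CF livers, against 9.87, 9.84, 10.47 and 10.04 in WT livers. The CF livers were all lower, CF 3 and CF 4 the most, and the difference was 1.90-fold (limma, adjusted p = 0.0171). Sqor, the mitochondrial sulfide oxidase, was 1.57-fold lower (adjusted p = 0.00624) and Suox, sulfite oxidase, 1.30-fold lower (adjusted p = 0.0186, lost without WT 3 at 0.0526). Cbs, which makes cystathionine from homocysteine, was 1.31-fold lower (adjusted p = 0.0361, lost without any 1 of 4 arrays). Cdo1, cysteine dioxygenase, had -0.02 ± 0.10 (SE; adjusted p = 0.925), and Ethe1 had -0.48 ± 0.15 (adjusted p = 0.0559), which passed in 4 of 18 alternatives, among them without CF 4 at -0.59 (adjusted p = 0.0309).

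Of the amino acid transporters 1 was higher, 2 lower and 5 not passed of 8 tested. Among the 5 is Slc38a2, with 0.36 on its brightest probe (limma, adjusted p = 0.167). A slightly dimmer Slc38a2 probe gave 0.54 and passed (adjusted p = 0.0398), so its probes disagree. Slc6a9, a glycine transporter, measured 8.27, 8.41, 7.49 and 7.88 in CF livers, against 9.16, 9.17, 9.04 and 8.73 in WT livers, a 2.02-fold lower level without overlap (limma, adjusted p = 0.00679). Slc7a2, a cationic amino acid transporter, was 1.39-fold higher on its brightest probe (adjusted p = 0.0233, lost without any 1 of 3 arrays). Its other probes gave 0.13 (adjusted p = 0.502) and 0.05 (adjusted p = 0.744), and the mean of the 3 did not pass, at 0.22 (adjusted p = 0.141). Slc1a2, a glutamate transporter, was 1.58-fold lower (adjusted p = 0.0498, lost without any 1 of 6). The glutamine carrier Slc38a3 had -0.10 ± 0.17 (SE; adjusted p = 0.743) with all arrays and -0.30 without WT 1 (adjusted p = 0.0472), and Slc38a4 had -0.12 ± 0.17 (adjusted p = 0.68).

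The list of regulators, factors and receptors known to act on amino acid catabolism genes, had 3 genes higher, 1 lower and 5 not passed of 9 tested. Cebpb, a C/EBP factor of the hormonal response in liver, measured 12.16, 12.11, 12.25 and 12.25 in CF livers, against 11.63, 11.51, 11.64 and 11.29 in WT livers. It was higher by 0.67 ± 0.09 (SE; limma, adjusted p = 0.00129) with no overlap, and by 0.73 without WT 3 and CF 1 (adjusted p = 0.0114). Its relative Cebpa was 1.54-fold lower (adjusted p = 0.0308, lost without any 1 of 5 arrays). Ppargc1a, a coactivator of the fasting response, was 1.68-fold higher (adjusted p = 0.038, lost without any 1 of 6), with 0.47 against 0.75 on the log2 scale once WT 3 and CF 1 were left out, and Foxo1, a factor restrained by insulin, was 1.27-fold higher (adjusted p = 0.0407, lost without any 1 of 7). Hnf4a had 0.21 ± 0.09 (SE; adjusted p = 0.142) and Creb3l3 had -0.03 ± 0.12 (adjusted p = 0.881). Nr3c1, the glucocorticoid receptor gene, with Creb1 and Insr, did not pass the background filter and was not tested.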

How the data were processed

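Whole-liver RNA of 4 CF and 4 WT samples was read on single-colour bead arrays. Per the submitters' processing notes the software was GenomeStudio. Background correction is not given in the sources used here. The deposited values are log2 expression of 25697 probes on 8 arrays. Their sorted values were equal to within 0.000351 on all arrays, which shows quantile normalization before deposit by the authors, so a shift common to nearly all transcripts is removed. The scanner table has 32 columns named by chip position. They could not be tied to samples and were not used.

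Background was set at 6.47, the most frequent value (6.18) plus the 95% normal quantile times the spread of lower values (0.173). The 12923 probes exceeding it in 4 or more arrays entered a two-sided limma fit (version 3.58.1, R 4.3.3, lmFit then eBayes) with genotype alone and Benjamini-Hochberg adjustment. The fit was tested on simulated data. Probes were named from the platform annotation (23978 with 1 symbol, 0 with several, 1719 with none), 1 probe a gene by highest mean. Paralog pairs used exact permutation over 70 assignments. Outside the chosen enzymes, genes are named by rule: per list up to 4 past the threshold by adjusted p, up to 2 others by highest mean, 8 fixed partners, and the 3 genes most like each enzyme. Genes and marker names given beyond that rule, such as the second probes, Nr3c1, Creb1, Insr and the called cell markers, were chosen after their values were seen. The enzymes and lists were chosen with earlier results of these data known. Precision is limited by the number of arrays, with a median SE of 0.0889 over tested probes. The array annotation names no genome build, so genes carry no array coordinates. Alternatives are given in the closing section.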

Additional observations from a re-analysis of the deposited data

Results flagged for a closer look

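An array is listed here when its gap to the nearest of the other 3 arrays of its genotype was, as a share of the range of that genotype, above Dixon's 95% critical value for 4 samples. In all, 134 combinations of a gene and a genotype were checked, and chance alone passes about 1 in 20 of them. Among the 8 measured enzymes, Gpt stood apart in CF 4, at 12.65 against 12.21 to 12.25 in the other CF livers. In the related lists, Fah stood apart in WT 2 (13.74, against 13.67 to 13.68 in the other WT livers), as did Aass (8.64, against 9.03 to 9.09). WT 1 was low for Kynu (11.24, against 11.41 to 11.44), Hoga1 (9.52, against 9.86 to 9.89), Gcdh (12.19, against 12.32 to 12.33) and Slc38a3 (11.42, against 12.18 to 12.22). WT 4 was high for the kidney markers Umod (10.85, against 6.08 to 6.31), Slc12a1 (10.45, against 6.23 to 6.34), Slc34a1 (11.99, against 6.07 to 6.20) and Kap (12.42, against 6.14 to 6.29).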

How the results depend on the processing

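Got1 and Gpt2 kept their direction and their call in all 18 alternatives, and Hal in 17 of 18, the exception being the fit without WT 3, WT 4 and CF 1 (adjusted p = 0.0898), an alternative chosen after the data had been seen. Gpt kept its call in 12 and Agxt in 8 of 18, always with the same direction. With the replicate block, Gpt had an adjusted p of 0.0545 and Agxt of 0.0615. The number of enzymes called lower was 1 without a filter on dim probes, 1 with the block, 1 without WT 3 and CF 1, and 0 with WT 4 left out as well. Leaving out 1 array at a time gave 2 to 3 enzymes higher and 1 to 2 lower. The 11 lists then gave 10 to 16 genes higher and 8 to 17 lower, and all tested probes 853 to 1158 higher and 759 to 952 lower. The lists gave 10 higher and 9 lower with the block, 7 and 6 without WT 3 and CF 1, and 3 and 5 without WT 3, WT 4 and CF 1. All tested probes gave 750 higher and 690 lower with the block, 531 and 529 without WT 3 and CF 1, and 250 and 368 without the 3 arrays. These fits have fewer samples or residual degrees of freedom. Equal replicate numbers were not shown to pair samples, since the deviations of the 4 equal-numbered pairs from their genotype means correlated at -0.33, 0.06, -0.29 and 0.09, and CF 1 was closest to WT 3 (0.586).

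Differences near 0 changed sign. Array weights gave Oat -0.0218 and Gcdh -0.0167, and cyclic loess gave Fah -0.0173, Oat -0.0517 and Gcdh -0.0354. Without WT 3 and CF 1, Oat was -0.0185, Aass 0.0865 and Cdo1 0.0337. Without the 3 arrays, Agxt2 was 0.0920, Mdh1 0.0577, Aldh6a1 0.0919, Aass 0.154, Cdo1 0.00722, Slc38a3 0.0547 and Afmid 0.0605. Leaving out 1 array moved Oat between -0.0819 and 0.0528, Aass between -0.189 and 0.0619, Cdo1 between -0.110 and 0.0285, Afmid between -0.133 and 0.0391, Gcdh between -0.0192 and 0.0417, Creb3l3 between -0.125 and 0.0450, Fah between -0.00475 and 0.106 and Agxt2 between -0.160 and 0.0307. With all arrays and the brightest probe none of these genes passed, while Slc38a3 did without WT 1 (adjusted p = 0.0472) and a dimmer Mdh1 probe did with all arrays (adjusted p = 0.00536). The adjusted exact p of the Got1 and Got2 pair was 0.0571 without any 1 array and 0.2 without WT 3 and CF 1, where the smallest p is larger. In none of these fits could the pair have passed by itself, so these values decide nothing. The cause of these shifts was not tested. The mean of all tested probes of a gene leaves the count over all probes undefined, so it was not run for that count. Signal over background limits what can be said of Tat and Ido2.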
